A study of Homo sapiens with 9 samples.

Results

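The genes described here are MET, the receptor tyrosine kinase for hepatocyte growth factor, HGF, which encodes that ligand, and the caveolin genes CAV1, CAV2 and CAV3. They were chosen by name with results of these arrays known, and every non-control probe that the array annotation assigns to one of these symbols was taken, which gave 8 probes of 5 genes among 36602 gene names on the array. RNA came from HEK293 cells, a human embryonic kidney line, that stably expressed HA-tagged MEK1 as WT, as F53S, a substitution found in RASopathies, or as K57N, a substitution found in cancer. MEK1, the product of MAP2K1, is the kinase that phosphorylates ERK. There were 3 arrays per line and 9 in all, and no treatment is given in the labels. In 1 label field the cells of WT replicates 2 and 3 are called HEK294 and HEK295, while their titles and cell line entries read HEK293, which was used here. Each form of MEK1 was represented by 1 stable line that keeps its own MAP2K1, so other differences between the lines cannot be told apart from effects of the mutation, and whether a line was a clone or a pool is not given in the sources used here. The study's text describes the 3 samples of a line as independent experiments, so the spread given below is that between experiments with the same line.

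Hepatocyte growth factor is secreted as an inactive precursor that proteases cleave, and the active form binds and dimerizes MET. The activated receptor recruits adaptors such as GRB2 and GAB1, which feed the RAS-ERK and PI3K-AKT pathways, and CBL marks it for internalization and degradation. Caveolins are membrane proteins that, with the cavin coat proteins, shape the flask-like pits called caveolae. CAV1 and CAV2 are expressed together in many cell types, and CAV3 is the muscle form. CAV2, CAV1 and MET lie in this order on the long arm of chromosome 7.

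The positions of the probes show this neighbourhood. On hg19, which the array annotation uses, the MET probe lay at chr7:116438290-116438349 on the plus strand. The CAV1 probes lay at chr7:116200742-116200801 and chr7:116199001-116199060, and the CAV2 probes at chr7:116140389-116140448 and chr7:116148261-116148320, all on the plus strand. The CAV2 probe at the lower coordinate started 298 kb before the MET probe. The annotation gives no exon or UTR for these probes. In the RefSeq gene table used for names, the MET probe's own accessions covered 2 of the 4 mRNAs of the gene, both CAV1 probes covered 4 of 4, and the CAV2 probes covered 3 and 4 of 4. The HGF probes lay at chr7:81374349-81374408 and chr7:81380287-81380346 on the minus strand and covered 2 and 1 of 5 mRNAs, and the CAV3 probe lay at chr3:8787416-8787475.

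The sequences before the start sites are shown for MET, CAV1 and CAV2, since these neighbours were the members above background on all 9 arrays. They are the 250 bases before the most upstream start that RefSeq lists on GRCh38.p14, at chr7:116671946-116672195 for MET, chr7:116524759-116525008 for CAV1 and chr7:116499488-116499737 for CAV2, on the plus strand. All 5 members had an entry in that table. Capitals mark matches, on either strand, to GGGCGG, the GC box that SP1 binds.
MET: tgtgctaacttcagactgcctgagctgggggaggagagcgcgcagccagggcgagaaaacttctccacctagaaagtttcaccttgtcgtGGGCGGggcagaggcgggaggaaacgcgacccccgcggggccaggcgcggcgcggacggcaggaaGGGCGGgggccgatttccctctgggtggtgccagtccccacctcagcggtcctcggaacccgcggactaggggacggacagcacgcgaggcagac
CAV1: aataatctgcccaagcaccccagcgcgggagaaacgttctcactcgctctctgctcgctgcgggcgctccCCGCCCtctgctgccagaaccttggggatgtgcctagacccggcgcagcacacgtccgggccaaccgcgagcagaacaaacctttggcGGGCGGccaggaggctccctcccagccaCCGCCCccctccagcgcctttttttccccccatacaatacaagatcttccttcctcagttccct
CAV2: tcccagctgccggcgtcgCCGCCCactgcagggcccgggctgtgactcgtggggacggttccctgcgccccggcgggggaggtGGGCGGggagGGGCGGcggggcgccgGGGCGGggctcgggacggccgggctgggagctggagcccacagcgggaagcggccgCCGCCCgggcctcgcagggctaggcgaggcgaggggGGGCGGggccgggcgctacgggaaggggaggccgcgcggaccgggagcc

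All 3 sequences were rich in G and C, at 68.4% for MET, 63.6% for CAV1 and 83.2% for CAV2 against a median of 58.0% over all 35116 listed promoter windows of the same length. The GC box occurred 2 times before MET, 3 times before CAV1 and 6 times before CAV2, and 42.6% of all windows held at least 1. None of the 3 windows held TGANTCA, the AP-1 element, which was in 6.57% of all windows. None held CCGGAA, a core bound by ETS factors, which was in 14.5% of them. A match of letters is a description of the window, and other parts of these promoters were not searched.

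Signals are given as log2 of the background-subtracted intensity minus the 75th percentile of the same array, so that a log2 value of 0 is the signal at that percentile and a difference of 1 is 2-fold. Levels of different probes are not comparable, and only the same probe is compared between lines. Arrays lay on 2 slides. Replicate 1 of each line was on slide 1, where the 75th percentile of the intensity was 245 to 376, and replicates 2 and 3 were on slide 2, where it was 695 to 821. MET, CAV1 and CAV2 were well above background on all 9 arrays with all 5 of their probes, and none of these probes was saturated. The MAP2K1 probe at chr15:66783224-66783283 had a mean of 2.37 ± 0.04 on the WT arrays, 2.45 ± 0.06 on the F53S arrays and 2.85 ± 0.06 on the K57N arrays (SD, n = 3), and whether the construct contains the probed sequence is not stated. Of 7 genes typical of HEK293 cells, 6 were above background on all 9 arrays and NEFM was on 6.

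MET signal was highest in the K57N line. Its log2 signal was 1.53, 2.13 and 2.04 on the WT arrays, 1.32, 2.07 and 2.16 on the F53S arrays, and 2.55, 2.78 and 2.77 on the K57N arrays, in the order of the replicate numbers. Each K57N array lay above all 6 arrays of the other lines, and the WT and F53S arrays overlapped. Means were 1.90 ± 0.32 in WT, 1.85 ± 0.46 in F53S and 2.70 ± 0.13 in K57N (SD, n = 3). MET signal was therefore 1.74-fold that of WT in K57N, a log2 difference of 0.80 (SE 0.26), and 1.80-fold that of F53S, a log2 difference of 0.85 (SE 0.26). F53S differed from WT by a log2 value of -0.05 (SE 0.26), which is within the spread of either line. In such bulk RNA, more cells with a transcript and more transcript per cell cannot be told apart.

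The MET difference was of the same sign on both slides. K57N exceeded WT by a log2 value of 1.03 on slide 1 and by 0.69 on slide 2, and in the pairs of equal replicate number by 1.03, 0.64 and 0.74. K57N exceeded F53S by 1.23 on slide 1 and 0.66 on slide 2. F53S minus WT was -0.21 on slide 1 and 0.03 on slide 2, so its sign was not shared. Including the slide in the fit left the K57N difference from WT at 0.80 and lowered its SE to 0.13. All 5 member probes above background read higher on slide 2 than on slide 1 in each of the 3 lines, by log2 values of 0.12 to 0.82, and for MET the step was 0.56 in WT, 0.79 in F53S and 0.22 in K57N.

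The rule for a call was an adjusted p below 0.05 together with more than 2-fold. The tested members all differed by less than 2-fold in the 3 comparisons, so the rule could call none of them at any p. The rule called 1.52% of 19203 genes higher and 0.739% lower in K57N against WT, 0% in either direction in F53S against WT, and 0.953% higher and 0.245% lower in K57N against F53S. Arrays of K57N that all lay above those of WT were seen for 10.2% of genes, and above those of F53S for 8.29%, and MET was a member of both sets. Since the 5 genes were chosen with these values known, they are described by values and errors and without p.

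**Figure D1:**
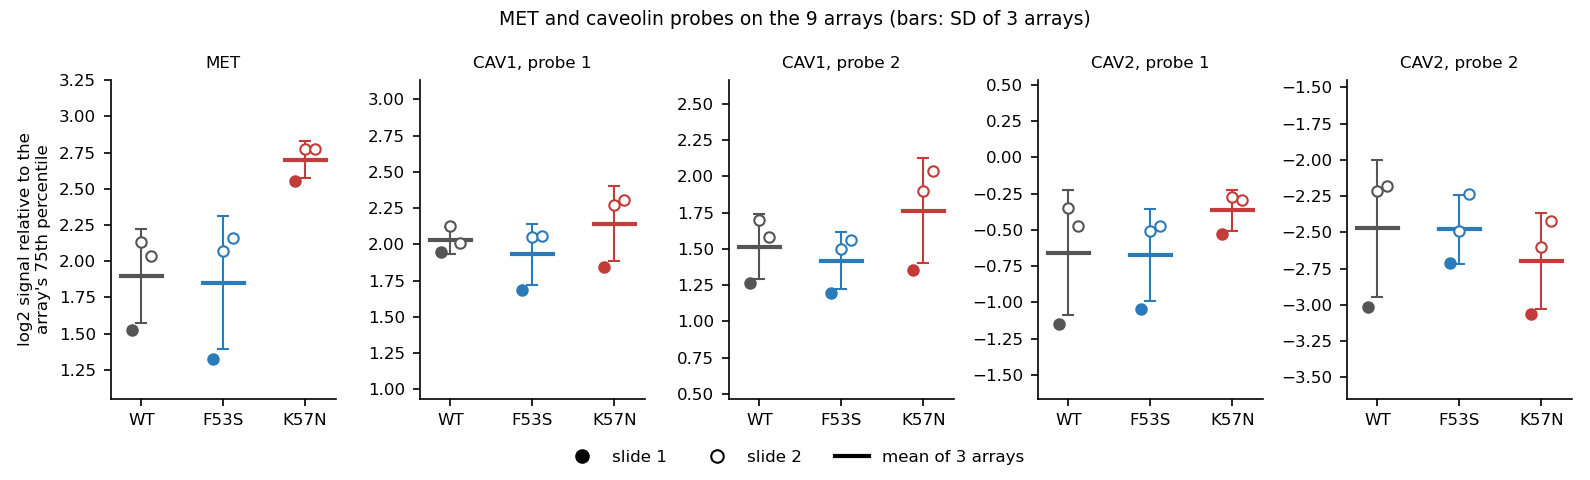
Log2 signal relative to the array's 75th percentile (vertical axes, each spanning the same range) for the MET, CAV1 and CAV2 probes in the WT, F53S and K57N lines. Filled points are slide 1, open points slide 2, thick lines the mean and bars the SD of 3 arrays. The K57N points of MET, from 2.55 to 2.78, lie above all other MET points, and the lines overlap for the caveolin probes.

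CAV1, the main structural protein of caveolae, overlapped between the lines over the 9 arrays, and within the pairs of equal replicate number K57N exceeded F53S with both probes. The first CAV1 probe, printed in 10 spots, read 1.95, 2.13 and 2.01 in WT, 1.69, 2.05 and 2.06 in F53S, and 1.84, 2.27 and 2.31 in K57N. The SD over the 9 or 10 spots used on an array was 0.0318 to 0.0731, so the spread between arrays of a line, with an SD of 0.09 to 0.26, exceeded that between spots. The log2 difference was 0.11 (SE 0.19) for K57N against WT, -0.10 (SE 0.19) for F53S against WT and 0.21 (SE 0.19) for K57N against F53S. On the slides the K57N difference from WT was -0.10 and 0.22, so it changed sign. K57N exceeded F53S in all 3 pairs, by 0.16, 0.23 and 0.25, and without F53S replicate 1 this difference was 0.09. With the slide in the fit the SE of each difference was 0.10.

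The second CAV1 probe read 1.27, 1.70 and 1.58 in WT, 1.19, 1.50 and 1.56 in F53S, and 1.35, 1.90 and 2.03 in K57N. K57N minus WT was 0.25 (SE 0.23), with 0.09 on slide 1 and 0.33 on slide 2, and F53S minus WT was -0.10 (SE 0.23). K57N minus F53S was 0.35 (SE 0.23), with 0.16, 0.41 and 0.47 in the pairs of equal replicate number. With the slide in the fit the SE of each difference was 0.10, and K57N exceeded WT in all 3 pairs, by 0.09, 0.20 and 0.45. On slide 2 the K57N arrays were above the WT and F53S arrays with both CAV1 probes, and on slide 1 the first probe was lower in K57N than in WT. The lines overlapped with both probes over the 9 arrays.

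CAV2, which assembles with CAV1 and depends on it for transport to the cell surface, had 2 probes that did not vary alike. The first, again in 10 spots, read -1.15, -0.35 and -0.47 in WT, -1.04, -0.51 and -0.47 in F53S, and -0.53, -0.28 and -0.30 in K57N. The SD over spots of an array was 0.0446 to 0.125. K57N minus WT was 0.29 (SE 0.26), with 0.63 on slide 1 and 0.13 on slide 2, and 0.63, 0.08 and 0.18 in the pairs of equal replicate number. With the slide in the fit the SE was 0.12. The WT and F53S arrays of slide 1 were the lowest for this probe, and without WT replicate 1 the K57N difference from WT was 0.05.

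The second CAV2 probe read -3.02, -2.21 and -2.18 in WT, -2.71, -2.49 and -2.24 in F53S, and -3.06, -2.60 and -2.42 in K57N. K57N minus WT was -0.23 (SE 0.28), opposite in sign to the first probe, with -0.05 on slide 1 and -0.31 on slide 2, and an SE of 0.13 with the slide in the fit. F53S minus WT was -0.02 (SE 0.26) with the first probe and -0.01 (SE 0.28) with the second. K57N minus F53S was 0.31 (SE 0.26) with the first probe, at 0.52, 0.23 and 0.18 in the pairs of equal replicate number. With the second probe it was -0.22 (SE 0.28), at -0.35, -0.11 and -0.18 in the pairs, so each probe kept its sign in all 3. Without F53S replicate 1 the first probe was at 0.12, and without K57N replicate 1 the second was at -0.03. The lines overlapped with both CAV2 probes over the 9 arrays. The accessions of the second probe covered an mRNA that those of the first did not.

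**Figure D2:**
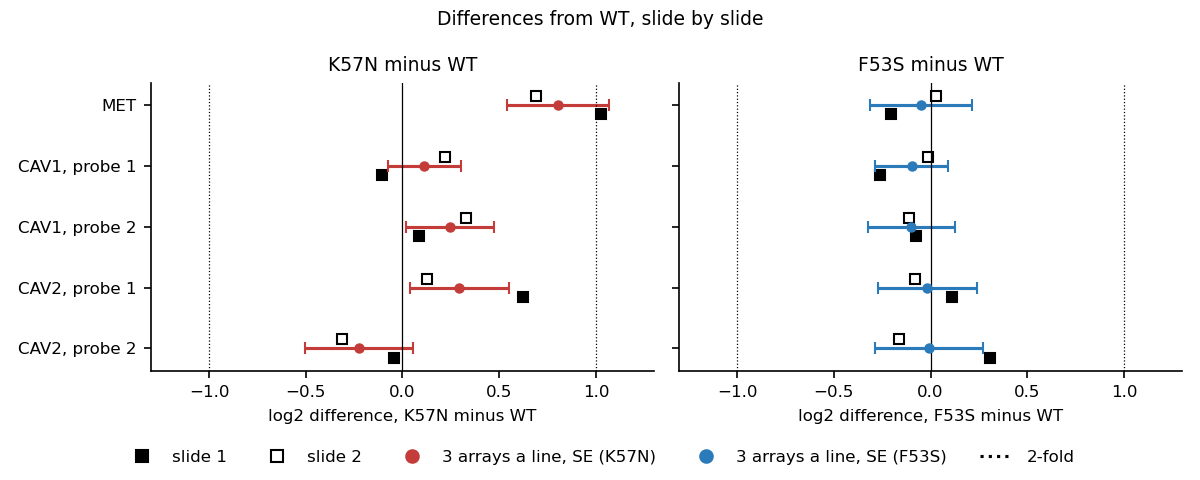
Log2 difference from WT (horizontal axes) of the K57N line, left, and the F53S line, right, for each MET, CAV1 and CAV2 probe. Circles are the difference over 3 arrays a line with its SE, filled squares slide 1, open squares slide 2, and dotted lines mark 2-fold. MET in K57N lies at 1.03 on slide 1 and 0.69 on slide 2, and the SE bars of the caveolin probes reach 0 or come close to it.

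HGF and CAV3 gave no level that could be compared. Both HGF probes were not well above background on any of the 9 arrays, with log2 values from -7.69 to -5.87 and from -7.52 to -5.75. All of these lay below the lowest signal called well above background on any array, which was between -5.58 and -3.76. The 2 probes do not cover all HGF mRNAs, and the others were not measured by them. The CAV3 probe was above background on the 2 arrays of slide 2 in each line and on no array of slide 1, at values from -4.78 to -3.89, and was not tested because no line had it above background on all 3 arrays.

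Across the 9 arrays, after the mean of each slide was subtracted, MET correlated with the first CAV2 probe with r = 0.90 and with the CAV1 probes with r = 0.63 and 0.76, and with the second CAV2 probe with r = -0.67. The CAV1 probes correlated with each other at r = 0.86 and the CAV2 probes at r = -0.39. These are descriptions over 9 arrays that share their lines and slides. Among 17020 genes above background on all 9 arrays, those most like MET in this measure were NPC1, ABTB3, TDP2, GOLT1B and FER, with r of 0.995 to 0.996. The K57N difference from WT in these genes was 0.52 for NPC1, 0.90 for ABTB3, 0.36 for TDP2, 0.61 for GOLT1B and 1.15 for FER. Those most like CAV1 were C8orf60, RNF111, EPHA4, RASSF1 and SLC25A14, with r of 0.947 to 0.982, and those most like CAV2 were NCL, WDR75, FAM72D, RNF115 and FAM221A, with r of 0.989 to 0.995. Without the slide adjustment r with MET was 0.81 for NPC1, 0.65 for ABTB3, 0.85 for TDP2, 0.99 for GOLT1B and 0.99 for FER. For CAV1 it was 0.29 for C8orf60, 0.91 for RNF111, 0.86 for EPHA4, -0.64 for RASSF1 and 0.98 for SLC25A14, so RASSF1 turned sign. For CAV2 it was 0.80 for RNF115, 0.43 for FAM221A and at least 0.99 for the others.

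The genes that act with MET and the caveolins were described from 5 lists of 63 genes, all on the array, of which 56 could be tested. The lists were chosen with earlier results of these data known, so the counts and p below describe these genes and do not test the lists. In K57N against WT, 3 of the 56 rose and none fell, and the median log2 difference was -0.03 beside -0.06 over all genes tested. With the replicate number or the slide as a block, 5 of the 56 passed, 4 of them higher and 1 lower. Over all genes these shares were 1.52% higher and 0.739% lower without a block, 2.56% and 1.96% with the slide, and 2.51% and 1.86% with the replicate number. In F53S against WT limma called 0 of 56, and also 0 when p was not adjusted or with either block. The differences there ran from -0.70 to 0.56, all under 2-fold, so none could be called at any p. In K57N against F53S, 2 of the 56 rose and none fell, and 5 passed with either block, 4 higher and 1 lower. Over all genes 0.953% were higher and 0.245% lower without a block, 1.89% and 1.1% with the slide, and 1.81% and 1.04% with the replicate number. Among the list genes that passed with a block, NRP2 met the filter only through K57N and CAVIN2 only through WT.

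**Figure D3:**
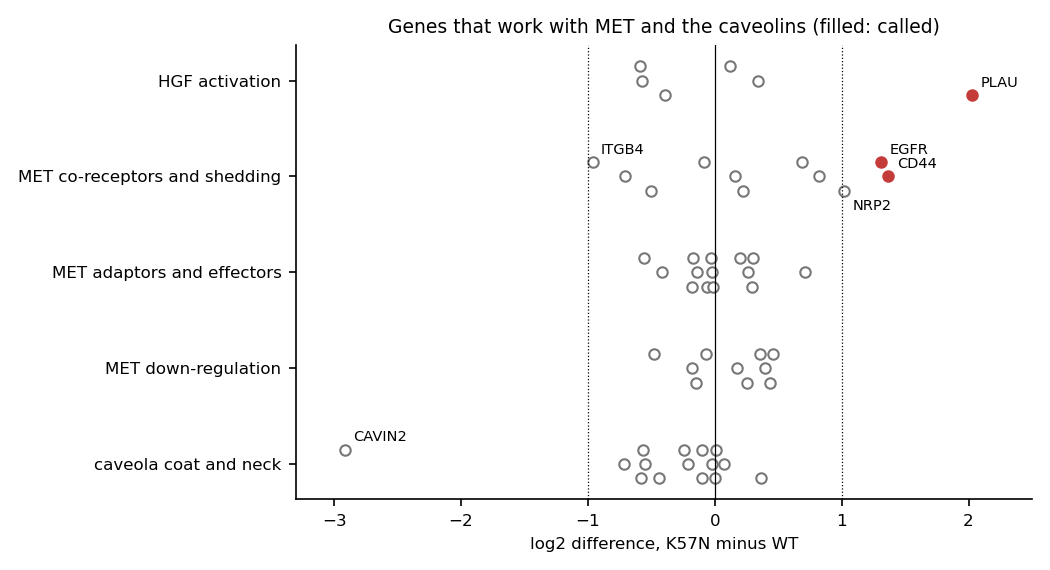
Log2 difference of K57N minus WT (horizontal axis) for the 56 tested genes of the 5 lists (rows). Filled points passed the test, dotted lines mark 2-fold, and genes beyond a log2 value of 0.9 in size are named. PLAU, CD44 and EGFR are the filled points, and CAVIN2 lies farthest to the left at -2.91 without passing.

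The list on HGF activation holds activating proteases, their inhibitors, and a ligand and a receptor related to HGF and MET. Of its genes, 10 on the array and 6 tested, PLAU rose in K57N and the other 5 did not pass. PLAU encodes urokinase, a protease that cleaves plasminogen and can cleave the HGF precursor. It read -0.52, -0.99 and -1.10 in WT, 0.20, -0.51 and -0.60 in F53S, and 1.86, 0.82 and 0.80 in K57N. The K57N arrays lay above all others, and the log2 difference from WT was 2.03 (SE 0.35, adjusted p = 0.0215 by limma). Against F53S the difference was 1.47 (adjusted p = 0.115), and with the slide in the fit this passed with an adjusted p of 0.000502. The call against WT was lost without any single K57N array or without WT replicate 2 or 3, with adjusted p of 0.0501 to 0.103, and also without the filter on dim probes (adjusted p = 0.0954). A second PLAU probe was well above background on all 3 K57N arrays, on 2 F53S arrays and on none of the WT arrays. It therefore met the filter only through K57N. The serine protease ST14 was at -0.39 and the inhibitors SPINT1 and SPINT2 at -0.57 and 0.34.

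Of the co-receptors, partner receptors and sheddases of MET, all 11 were tested, and CD44 and EGFR rose in K57N. CD44, an adhesion receptor whose variant forms present HGF to MET, read 2.84, 2.80 and 2.73 in WT, 3.05, 2.80 and 2.90 in F53S, and 4.44, 4.01 and 4.04 in K57N. K57N exceeded WT by 1.37 (SE 0.17, adjusted p = 0.00520 by limma) and F53S by 1.24 (adjusted p = 0.0133). A second CD44 probe gave 0.78 against WT (adjusted p = 0.497 by limma). Without F53S replicate 2 or 3 or K57N replicate 2 or 3 the adjusted p against F53S was 0.0567 to 0.0830, and with 2 lines at a time it was 0.0676. Both calls were lost with the mean of the CD44 probes, at 1.07 against WT (adjusted p = 0.0877 by limma) and 1.02 against F53S (adjusted p = 0.160), and without the filter on dim probes, with adjusted p of 0.0535 and 0.129.

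EGFR, the EGF receptor, which can form complexes with MET, read -1.68, -1.88 and -1.56 in WT, -1.77, -1.54 and -1.46 in F53S, and -0.01, -0.55 and -0.63 in K57N. K57N exceeded WT by 1.31 (SE 0.21, adjusted p = 0.0153 by limma) and F53S by 1.19 (adjusted p = 0.0374), and the K57N arrays lay above all others. Its other tested probes gave 1.14 and 0.34 against WT. The call against WT was lost without K57N replicate 2 or WT replicate 2 or 3, with adjusted p of 0.0567 to 0.0786, and that against F53S was lost without any single array. With normexp background correction neither passed, at 0.95 against WT (adjusted p = 0.112 by limma) and 0.79 against F53S (adjusted p = 0.305), and on slide 2 alone the difference from F53S was 0.91, under 2-fold. Both calls were also lost with the mean of the EGFR probes, at 0.93 and 0.79, and without the filter on dim probes, with adjusted p of 0.105 and 0.227.

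ITGA6, the integrin chain that pairs with ITGB4, differed by 0.82 (adjusted p = 0.0356 by limma), under 2-fold, and ITGB4 by -0.96 (adjusted p = 0.353). NRP2, a neuropilin, differed by 1.02 (adjusted p = 0.158) and passed in the fits with a block. Its probe was above background on 2 of 3 arrays in both WT and F53S and on all 3 in K57N, so it met the filter only through K57N. The WT value of slide 1, -4.22, lay below the lowest signal called well above background on that array, -3.86. A second NRP2 probe, which also met the filter only through K57N, gave 0.82 against WT (adjusted p = 0.297 by limma). The sheddases ADAM10 and ADAM17 were at 0.69 and 0.22, and neither passed. NRP2 and these other genes were named after their values were seen.

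**Figure D4:**
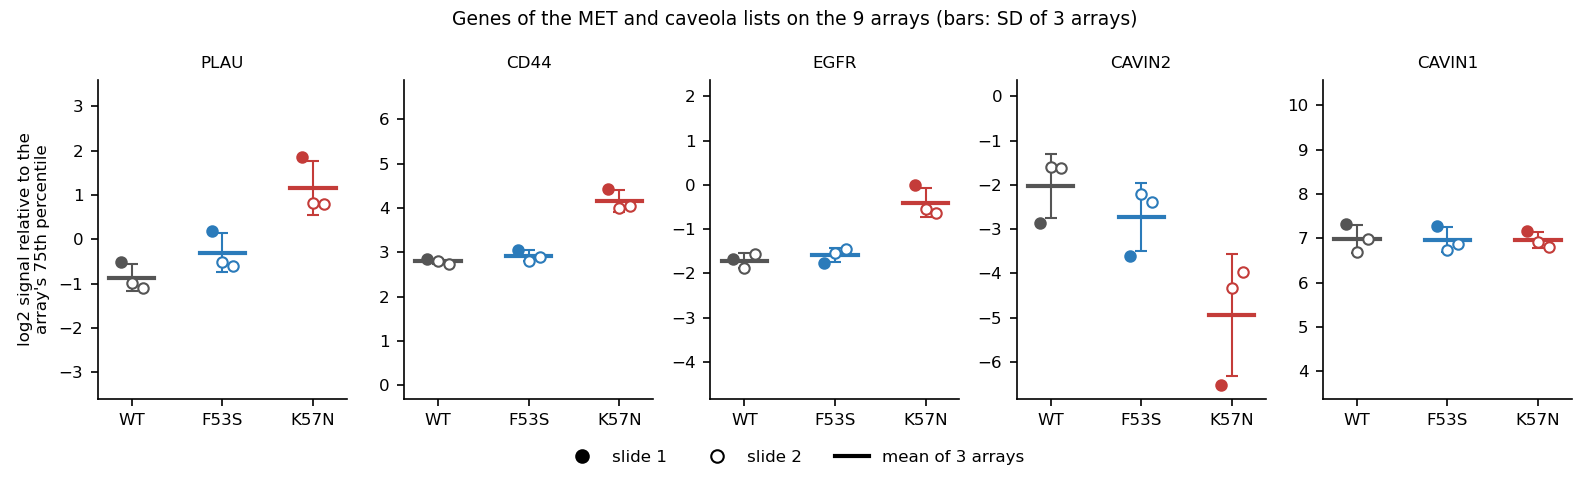
Log2 signal relative to the array's 75th percentile (vertical axes, each spanning the same range) of PLAU, CD44, EGFR, CAVIN2 and CAVIN1 in the 3 lines. Filled points are slide 1, open points slide 2, thick lines the mean and bars the SD of 3 arrays. The K57N points of PLAU, CD44 and EGFR lie above all others, those of CAVIN2 lie below all others, and those of CAVIN1 overlap the other lines.

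The adaptors and effectors downstream of MET, 15 genes with 14 tested, held no gene that passed in any of the 3 comparisons. All their differences were under 2-fold, so none could pass at any p, adjusted or not. The extremes in K57N against WT were PIK3CA, the catalytic PI3K subunit, at 0.71 (adjusted p = 0.723 by limma), and PIK3R1, a regulatory subunit, at -0.56 (adjusted p = 0.749). Without WT replicate 1 PIK3CA was at 0.28, and without K57N replicate 1 PIK3R1 was at -0.17. The phospholipase PLCG1 was at -0.42, with an unadjusted p of 0.0313 by limma. With the slide in the fit, PIK3CA, PLCG1 and PIK3R1 had adjusted p of 0.0336 to 0.0401 by limma in K57N against WT. The other tested genes of the list were above 0.05. The adaptor GRB2 was at -0.03, and the median was -0.03. GAB1, the docking protein, was not above background on all arrays of a line.

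The genes that end MET signaling, 12 with 10 tested, also held none that passed, and their median was 0.21 in K57N against WT. All their differences were under 2-fold, so none could pass at any p, adjusted or not. The phosphatase PTPRF was at -0.48 (adjusted p = 0.296 by limma) and the ubiquitin ligase CBL at 0.46 (adjusted p = 0.587) in K57N against WT. Without WT replicate 1 CBL was at 0.27.

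Of the 15 genes of the caveola coat and neck, all tested, none passed in the fit without a block, and CAVIN2 stood apart in size. CAVIN2, a cavin that binds phosphatidylserine and takes part in shaping caveolae, read -2.87, -1.59 and -1.63 in WT, -3.61, -2.20 and -2.38 in F53S, and -6.53, -4.32 and -3.97 in K57N. The K57N arrays lay below all others, and the F53S array of each replicate number lay between those of WT and K57N. It was well above background on 3 WT arrays and on 2 arrays each of F53S and K57N, those of slide 2. It therefore met the filter only through WT, where its signal was highest. The log2 difference of K57N from WT was -2.91 (SE 0.71, adjusted p = 0.0817 by limma). With normexp background correction it was -1.31 and passed (adjusted p = 0.00836 by limma). The K57N value of slide 1, -6.53, lay below the lowest signal called well above background on that array, -4.42. With the slide in the fit the adjusted p was 0.000317, with the replicate number 0.00120, and on slide 2 alone the difference was -2.54 (adjusted p = 0.00258). Without K57N replicate 1 it was -2.12. F53S minus WT was -0.70 (SE 0.71) and did not pass.

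None of the other coat genes passed in K57N against WT. CAVIN1, the cavin needed for caveolae to form, read 7.32, 6.68 and 6.98 in WT, 7.28, 6.74 and 6.87 in F53S, and 7.17, 6.93 and 6.81 in K57N, a difference of -0.02 (SE 0.23) for K57N against WT. A second CAVIN1 probe gave 0.51 (adjusted p = 0.259 by limma). CAVIN3 was at 0.37 and PACSIN1, a membrane-bending syndapin, at -0.71 (adjusted p = 0.185). The neck ATPase EHD2 was at -0.58, and the list's median was -0.21 beside -0.06 over all genes.

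Since caveolins are abundant in endothelial cells, adipocytes, fibroblasts and muscle, markers of these and of leukocytes were read in the same arrays. TIE1 of the endothelial list, ADIPOQ, PLIN1, FABP4 and LEP of the adipocyte list, COL1A2, DCN and PDGFRB of the fibroblast list and MYH2 of the muscle list were above background on no array. Of the 27 markers of these types on the array, 11 could be tested and 0 passed in K57N against WT by limma, with 3 at an unadjusted p below 0.05, of which 1, COL1A1, differed over 2-fold. Among those not tested, PECAM1 was above background on 2 K57N arrays and on none of the other lines, with a mean of -6.76 in WT and -4.16 in K57N, and COL3A1 on 2 WT, 2 F53S and 0 K57N arrays, with means of -4.12 in WT and -7.00 in K57N. The summed log2 level of the fibroblast list was -0.24 to 0.50 in WT and -1.13 to -0.96 in K57N, with COL1A1 at -1.20 (adjusted p = 0.0994 by limma). The summed levels of the endothelial list were -1.71 to -0.71 in WT and -1.67 to -0.98 in K57N, those of the adipocyte list -0.51 to 0.11 and -0.21 to 0.61, those of the muscle list 0.10 to 0.90 and -0.01 to 0.43, and those of the leukocyte list -0.21 to 0.71 and -0.04 to 0.20. Of the endothelial markers tested, VWF went the other way from PECAM1, at -0.85 in K57N against WT, and CDH5 was at -0.13. Each K57N array of VWF lay below all WT arrays. TEK and KDR, not tested, had means of -5.70 and -6.79 in WT and of -6.16 and -5.88 in K57N. The part of these markers in the caveolin and MET values was not tested.

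The neighbours of the 3 genes on chromosome 7 showed no difference that passed. The array held 26 other genes with a probe within 2 Mb of the CAV2, CAV1 and MET probes, of which 10 were tested, each with its most intense probe. By limma 0 were called in any comparison, with p adjusted or unadjusted. Every difference in this fit was under 2-fold, so none could be called at any p. In K57N against WT, CAPZA2, a subunit of the actin capping protein whose probe lies 0.12 Mb beyond that of MET, was at 0.59 (SE 0.24, adjusted p = 0.329). Its signal was 0.11, 0.36 and 0.90 in WT and 0.98, 1.04 and 1.14 in K57N. FOXP2, a transcription factor gene, was at -0.95 (SE 0.30, adjusted p = 0.185), and at -0.49 with normexp background correction. Its most intense probe, 2.37 Mb before the MET probe, lay outside the window, which held its other probes. TES, between FOXP2 and CAV2, was at 0.01, and ST7, beyond CAPZA2, at 0.37. The median of the 10 neighbours was 0.03 beside -0.06 over all genes. With the slide in the fit, 0 were called, all being under 2-fold. In that fit FOXP2, ST7-AS1, CAPZA2, CTTNBP2 and ST7 had adjusted p of 0.0135 to 0.0457 by limma in K57N against WT. The other tested neighbours were above 0.05.

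**Figure D5:**
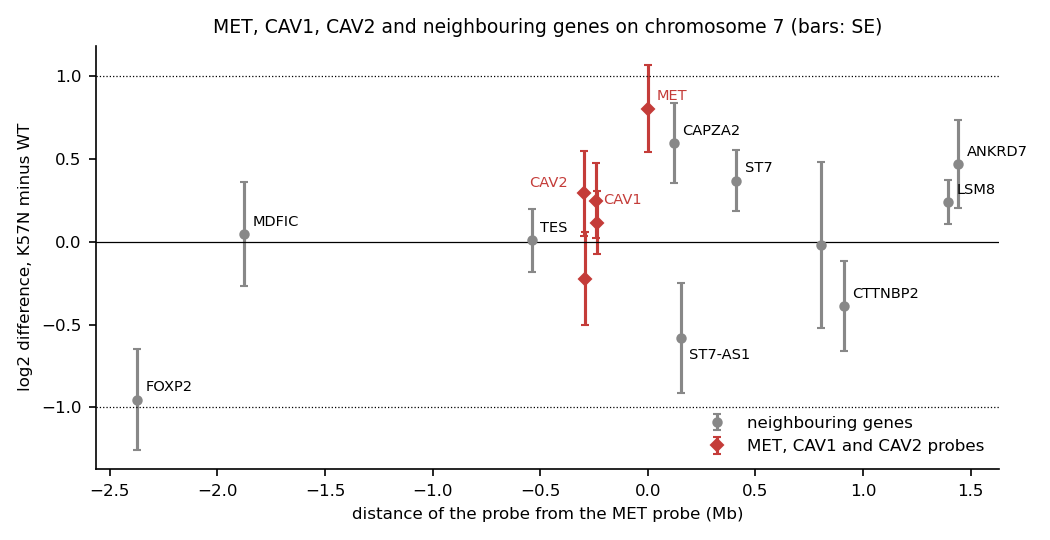
Log2 difference of K57N minus WT (vertical axis) with its SE against the distance of each probe from the MET probe in Mb (horizontal axis). Diamonds are the MET, CAV1 and CAV2 probes, circles the 10 tested neighbouring genes, and dotted lines mark 2-fold. MET, at 0.80, is the highest point shown, and FOXP2, at -0.95, the lowest.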

How the data were processed

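Gene expression was measured in 9 samples of 3 HEK293 lines with Agilent arrays read in 1 color. Per the labels, Agilent Feature Extraction 10.10.1.1 gave the processed intensity that the authors deposited for each array, which is corrected for background and not scaled across arrays. The deposited log2 values of the series table match the log2 of that intensity, less 1 constant per array, within 0.02 for 100% of 50598 probes. Here intensities were expressed as log2 relative to the 75th percentile of the array's non-control spots. Flagged spots (uneven, outlier) were dropped and repeated spots averaged. A probe entered the tests if every array of any line had it well above background (25400 probes), and the probe with the highest mean stood for its gene. Symbols of 28387 probes were updated through RefSeq accessions.

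The limma fit (limma 3.58.1, R 4.3.3) held 1 mean per line over all 9 arrays, with Benjamini-Hochberg adjustment over all probes. Calls needed more than 2-fold and an adjusted p below 0.05. The script was tested on simulated data. The members and gene lists were chosen with earlier results of these data known. Named list genes are those called in any comparison, and in a list with no call the 2 with the largest difference of K57N from WT. Other list genes and neighbours, such as ST14, GRB2 and CAVIN1, were named for their role or their p after their values were seen. The genes most like a member were the 5 with the highest Pearson r of the most intense probe. Replicate numbers paired the arrays, since deviations from the line means correlated at r = 0.34 to 0.87 between arrays of equal number, in part through the slides, which the file headers identify. Alternatives covered the background (normexp, offset 50), quantile normalization, the filter (none, or above background on all 9 arrays), averaging the probes of a gene, fitting 2 lines at a time, blocks for the replicate or the slide, slide 2 alone, the deposited log2 values, the methods' t-test, and leaving out each array. The number of arrays limits the precision.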

Additional observations from a re-analysis of the deposited data

How the results depend on the processing

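In K57N against WT, 3 genes of the 5 lists were called, and this became 5 with the replicate block, 5 with the slide as a term, 5 on slide 2 alone, 1 with the mean of a gene's probes, 0 without the filter on dim probes, and 0 or 5 with the methods' t-test with or without adjustment. Leaving out each array in turn gave 1 to 4. In K57N against F53S, 2 were called, and this became 5 with the replicate block, 5 with the slide as a term, 5 with the unadjusted t-test, 1 with normexp, and 0 with the adjusted t-test, the mean of a gene's probes, no filter or 2 lines at a time. The adjusted t-test lost PLAU, CD44 and EGFR against WT, and CD44 and EGFR against F53S. Leaving out each array gave 0 to 1. F53S against WT and all neighbour counts stayed at 0 in every setting. The tested members were under 2-fold with and without the replicate block, so none could be called at any p. The causes were not tested.

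The MET difference of K57N from WT stayed between 0.69 and 0.84 in the other settings and between 0.62 and 0.92 without an array. At the first probe the CAV1 difference stayed between 0.07 and 0.22, and that of CAV2 between 0.03 (mean of its probes) and 0.33. Without an array these were 0.03 to 0.26 and 0.05 to 0.45. At the second probe CAV1 stayed between 0.23 and 0.33 and CAV2 between -0.31 and -0.19 in the other settings, and without an array these were 0.11 to 0.45 and -0.50 to -0.04. Against F53S the ranges without an array were 0.09 to 0.36 and 0.21 to 0.55 for the CAV1 probes, and 0.12 to 0.41 and -0.35 to -0.03 for the CAV2 probes. For F53S against WT they were -0.16 to 0.03 and -0.22 to 0.01 for the CAV1 probes. They were -0.26 to 0.17 and -0.28 to 0.14 for the CAV2 probes and -0.23 to 0.22 for MET, so none kept its sign. With 3 arrays a line on 2 slides of unequal intensity, the median SE of a log2 difference was 0.29, or 0.14 with the slide in the fit.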
